A study of Mus musculus with 37 samples.

Results

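The 9 genes described here form the route by which lactate and pyruvate enter the oocyte's mitochondria. They are the lactate dehydrogenase genes Ldha and Ldhb, the plasma membrane carrier gene Slc16a1, the mitochondrial carrier genes Mpc1 and Mpc2, and the pyruvate dehydrogenase genes Pdha1, Pdhb, Dlat and Dld. They were chosen by symbol for their place in this route. Each symbol matched 1 row of the gene tables, which gives 9 of 54752 gene rows, and 54 of 138835 transcript rows.

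As background, the growing and maturing mouse oocyte uses glucose poorly and relies on pyruvate, which the surrounding cumulus cells supply. Lactate dehydrogenase is a tetramer of A and B subunits, encoded by Ldha and Ldhb, and interconverts lactate and pyruvate. Monocarboxylate transporters carry both acids across the plasma membrane, a carrier made of MPC1 and MPC2 takes pyruvate into the mitochondrion, and the pyruvate dehydrogenase complex turns it into acetyl-CoA for the TCA cycle.

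The study sequenced RNA of individual C57BL/6 mouse oocytes to follow transcripts through meiotic maturation, from the germinal vesicle (GV) stage to metaphase I (MI) and metaphase II (MII). The labels name the batches A and B. Batch A held 6 GV and 6 MII oocytes, batch B held 10 GV and 15 MI oocytes, and each library was 1 oocyte. Expected counts assigned to genes had medians per group of 10014033 (GV, batch A), 10509160 (MII), 11548242 (GV, batch B) and 12840734 (MI), and the shallowest library, MI oocyte 15, had 2709280.

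Per the study's methods, the females were 6 to 8 weeks old and had received 5 IU of PMSG. Ovaries at 48 h after this dose were the source of the GV group. The MII group had matured in the animal, with 5 IU of hCG given 15 h before it was taken from the oviduct ampulla. MI oocytes were instead GV oocytes freed of cumulus cells and cultured for 8 h in M16 medium. The zona was dissolved with acidic Tyrode's solution and the polar body taken away before lysis. Stage therefore cannot be told apart from maturation in the animal or in culture, and MI and MII were never in the same batch. How many animals gave the oocytes is not stated, so each p below measures spread between oocytes. Spike-in RNA was counted in batch A.

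The labelled cell type was checked first. Of 12 oocyte markers, 12 had a mean over 5 CPM (counts-per-million of RSEM counts, scaled within a batch by edgeR's TMM factors) in each of the 4 groups. Gdf9, an oocyte growth factor gene, was the most abundant of them in each group, with a mean of 2823 CPM in GV and 2477 in MII oocytes of batch A, and 2067 in GV and 1714.5 in MI oocytes of batch B. The summed CPM of the 12 markers had a median of 13070.0 (GV) and 8856 (MII) in batch A and of 4786 (GV) and 4341 (MI) in batch B.

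Of 20 cumulus and granulosa markers, 3 (GV) and 2 (MII) exceeded a mean of 5 CPM in batch A, and 2 (GV) and 2 (MI) in batch B. Their summed level had a median of 49.3 CPM (GV) and 40.4 (MII) in batch A, and of 38.4 (GV) and 36.9 (MI) in batch B. The most abundant was the aromatase gene Cyp19a1, with a mean of 16.1 CPM (GV) and 17.5 (MII) in batch A and 15.9 in GV of batch B, and in MI the nuclear receptor gene Nr5a2, with 20.1 CPM. Among the defining markers, Amh and Foxl2 were at 0 in all 25 oocytes of batch B, and Fshr was at 0 in 9 of 10 GV and 14 of 15 MI oocytes. In batch A, Amh was at 0 in 5 of 6 GV and 5 of 6 MII oocytes, and Fshr in 1 of 6 and 5 of 6. Foxl2 was at 0 there in 3 of 6 GV and 4 of 6 MII oocytes, with highest counts of 3 and 4.

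Of 9 blood and immune markers, 0 exceeded a mean of 5 CPM in any group. Their summed level had a median of 0.753 CPM (GV) and 1.66 (MII) in batch A, and of 5.20 (GV) and 3.31 (MI) in batch B. Cd68 was the most abundant in batch A (means 0.749 CPM in GV and 1.06 in MII) and Hbb-bs in batch B (2.21 in GV and 1.58 in MI). MII oocyte 1 stood highest, at 17.7 CPM. Hbb-bs, a globin gene, was at 0 in 4 of 6 GV and 3 of 6 MII oocytes of batch A.

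Levels were first compared between the genes. For this, the counts of each transcript were divided by its annotated length, summed per gene and scaled to the same total in each oocyte, a scale called level per length below. Ldhb stood far above the other 8 genes in every group. Its mean level per length was 4539 ± 914 (SD, n = 6) in GV and 3554 ± 952 (SD, n = 6) in MII oocytes of batch A, and 1349 ± 345 (SD, n = 10) in GV and 1089 ± 267 (SD, n = 15) in MI oocytes of batch B. It ranked 22 (GV) and 27 (MII) of 54749 genes in batch A, and 47 (GV) and 51 (MI) in batch B.

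Ldhb held on average 91.7% (GV) and 91.4% (MII) of the summed level per length of the 9 genes in batch A, and 80.7% (GV) and 78.2% (MI) in batch B. The lowest share in any oocyte was 71.5%, in an MI oocyte. The gene next below it was Dld in GV of batch A, with a level per length of 98.4 ± 16.9 (SD, n = 6), and Pdhb in MII, with 85.6 ± 25.5 (SD, n = 6). In batch B it was Dld, with 81.4 ± 25.2 (SD, n = 10) in GV and 84.6 ± 22.6 (SD, n = 15) in MI. Ldhb was above that gene in every oocyte of the 4 groups.

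Below Ldhb the 7 other detected genes lay close together, with group means from 19.8 (Slc16a1 in MII) to 98.4 (Dld in GV of batch A) on the scale per length. In GV of batch A the order was Dld, Pdhb, Mpc1, Mpc2, Dlat, Pdha1 and Slc16a1, and each was above the next in 3 to 5 of 6 oocytes, so neighbours in this order did not separate beyond their spread. In GV of batch B the order was Dld, Pdhb, Pdha1, Mpc1, Slc16a1, Dlat and Mpc2. There Dld was above Pdhb in 9 of 10 oocytes, and Dlat was above Mpc2 in 5 of 10. The place of Mpc1 depends on the counting, since HTSeq gave it a mean of 14.4 CPM in GV of batch A and Mpc2 50.4, where RSEM gave 32.0 and 32.9. Ldha came last in each group, with medians of 0.496 (GV) and 0.239 (MII) in batch A and 1.80 (GV) and 0.553 (MI) in batch B. Its highest value was 1.95 within batch A, in MII oocyte 1, and 14.9 within batch B, in GV oocyte 8.

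**Figure D1:**
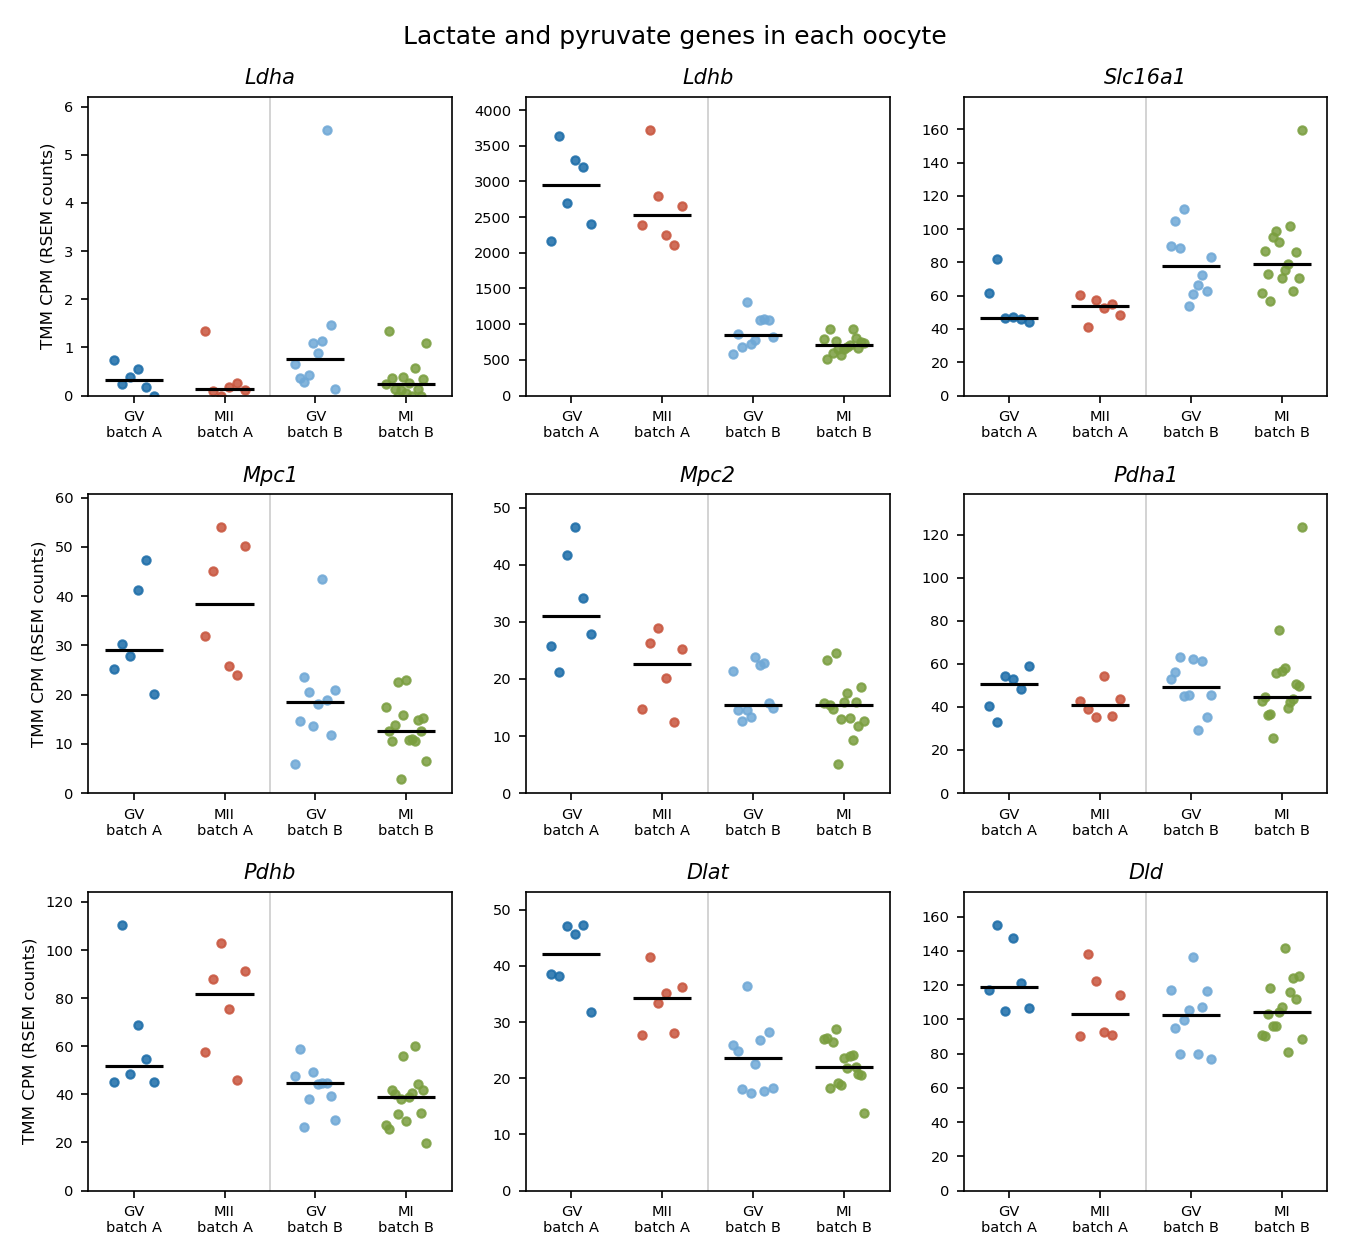
Each panel plots 1 gene in each oocyte (dots) as TMM-scaled CPM, on a linear axis from 0, for GV and MII of batch A and for GV and MI of batch B; bars are medians. The groups of each batch overlap for each of the 9 genes, and scaling was done within each batch, so the batches are not on a common scale.

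The question of the comparisons was which of these transcripts differ in abundance once meiosis resumes, from GV to MII in batch A and from GV to MI in batch B. After a filter on low counts, edgeR's quasi-likelihood test was applied, with Benjamini-Hochberg adjustment over all genes tested, and a gene passed with an adjusted p under 0.05. Ldha had too few counts for this filter in both comparisons, so 8 of the 9 genes were tested.

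From GV to MII, 0 of the 8 tested genes passed edgeR's test, where 20.6% of all 12929 tested genes did. At an unadjusted p under 0.05 there was 1 of 8 (Mpc2), beside 34.3% of all genes. DESeq2 gave 0, beside 9.2% of all genes, and edgeR on HTSeq counts gave 0, beside 15.5%. The log2 fold changes were positive for 2 genes and negative for 6, with a median of -0.16 against 0.013 over all genes tested.

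From GV to MI, 0 of the 8 tested genes passed edgeR's test, where 0.145% of all 12419 tested genes did. At an unadjusted p under 0.05 there was 1 of 8 (Ldhb), beside 11.0% of all genes. DESeq2 gave 0, beside 0.69% of all genes, and edgeR on HTSeq counts gave 0, where none of all 12441 genes passed. The log2 fold changes were positive for 3 genes and negative for 5, with a median of -0.11 against 0.018 over all genes tested.

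The difference between the MII change and the MI change was tested in a model of all 37 oocytes with 4 groups. Of 15083 genes, 5.46% passed this test of the difference, and of the 9 genes, all of which were tested here, 0 passed by edgeR and 0 by DESeq2, by which 3.27% of all genes did. At an unadjusted p under 0.05 there was 1 of 9 (Mpc1), beside 17.7% of all genes. Stage, batch and manner of maturation cannot be told apart in it.

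Ldhb encodes the heart-type subunit of lactate dehydrogenase, whose tetramer is kinetically suited to oxidizing lactate. In batch A its lowest, median and highest levels were 2159.6, 2951 and 3631 CPM in GV oocytes and 2116, 2523.5 and 3725 CPM in MII oocytes. MII oocyte 2 was above all GV oocytes, MII oocyte 5 was below all of them, and the other 4 lay within the GV range. The log2 fold change was -0.13 (SE 0.16, 95% interval -0.47 to 0.22), and it did not pass edgeR's quasi-likelihood test with Benjamini-Hochberg adjustment (adjusted p = 0.619).

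In batch B, Ldhb had 589, 843 and 1306 CPM as the lowest, median and highest of the GV oocytes, and 514, 709 and 935 CPM among the MI oocytes. Below the GV median were 13 of 15 MI oocytes, and 2 of them were below all GV oocytes. The log2 fold change was -0.32 (SE 0.12, 95% interval -0.56 to -0.076). Its unadjusted p was 0.0116 in edgeR's quasi-likelihood test, and with Benjamini-Hochberg adjustment it did not pass (adjusted p = 0.271). The MII change of Ldhb minus its MI change was 0.27 on the log2 scale (SE 0.20, adjusted p = 0.557 in the same test).

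Ldha encodes the muscle-type subunit, and its counts were near the limit of detection. The lowest, median and highest expected counts were 0, 4 and 6 in GV and 0, 1.5 and 13 in MII oocytes of batch A. They were 2, 8.96 and 58.9 in GV and 0, 2 and 14 in MI oocytes of batch B. Where no count was seen in an oocyte, as many as 3 are allowed with 95% confidence. At or under 3 counts were 3 of 6 GV and 5 of 6 MII oocytes in batch A, and 3 of 10 GV and 10 of 15 MI oocytes in batch B.

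The oocytes with the most Ldha counts were GV oocyte 8 (58.9) and GV oocyte 9 (27.0) in batch B, and HTSeq gave them 47 and 45. The summed level of granulosa markers was 28.4 CPM in oocyte 8 and 41.1 in oocyte 9, where the group's median was 38.4. Its largest parts in this group were Cyp19a1 (mean 15.9 CPM) and Nr5a2 (11.7 CPM). Ccnd2 had 37 counts in each of these oocytes, where the group ran from 7 to 141. Gja1 had 21.1 and 32.2 counts, where it ran from 4 to 162. The part of granulosa cells in the Ldha of these oocytes was not tested. In MII oocyte 1, HTSeq gave 8 counts of Ldha, and the next MII oocyte had 5. With Ldha set to at least 3 counts, the median number of Ldhb counts per Ldha count was 8716 (GV) and 8385 (MII) in batch A and 917 (GV) and 2398 (MI) in batch B. The number is a lower bound only in oocytes where Ldha was at 0. The lowest in any oocyte was 194. The MII change of Ldha minus its MI change was 1.92 on the log2 scale (SE 1.24), did not pass edgeR's quasi-likelihood test with Benjamini-Hochberg adjustment (adjusted p = 0.456), and was 0.70 without MII oocyte 1.

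Slc16a1 encodes MCT1, a monocarboxylate carrier that moves lactate and pyruvate together with protons. Its lowest, median and highest levels in batch A were 44.2, 46.8 and 82.2 CPM in GV oocytes and 41.0, 53.8 and 60.3 CPM in MII oocytes. In batch B they were 53.8, 77.7 and 111.9 CPM in GV oocytes and 56.9, 79.1 and 160 CPM in MI oocytes. The ranges overlapped in both batches, and MI oocyte 15, the shallowest library, was the highest.

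For Slc16a1 the log2 fold change was -0.057 from GV to MII (SE 0.17, 95% interval -0.42 to 0.30) and 0.087 from GV to MI (SE 0.15, 95% interval -0.22 to 0.39). Neither passed edgeR's quasi-likelihood test with Benjamini-Hochberg adjustment (adjusted p = 0.844 and 0.895). The sign turned with 1 oocyte left out. From GV to MII it was 0.096 without GV oocyte 2 and 0.0023 without MII oocyte 2, and it was -0.0013 from GV to MI without MI oocyte 15.

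MPC1 and MPC2 together form the carrier of the inner mitochondrial membrane. Mpc2 had 21.2, 31.0 and 46.6 CPM as the lowest, median and highest of the GV oocytes of batch A, and 12.4, 22.7 and 29.0 CPM among the MII oocytes. All 6 MII oocytes were below the GV median, and 3 of them (1, 4 and 5) were below every GV oocyte. The log2 fold change was -0.63 (SE 0.24, 95% interval -1.13 to -0.12). It had an unadjusted p of 0.0175 in edgeR's quasi-likelihood test and did not pass with Benjamini-Hochberg adjustment (adjusted p = 0.0715).

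Mpc2 lay near the threshold. It passed without the filter on low counts (adjusted p = 0.0443) and without GV oocyte 2 (adjusted p = 0.0426), in edgeR's quasi-likelihood test with Benjamini-Hochberg adjustment. Over its 20 alternatives the adjusted p ran from 0.000534 to 0.223 and the log2 fold change from -1.34 to -0.50. In batch B, Mpc2 had 12.7, 15.4 and 23.8 CPM as the lowest, median and highest of the GV oocytes and 5.06, 15.4 and 24.6 CPM among the MI oocytes, so that the MI range enclosed the GV range. There the log2 fold change was -0.22 (SE 0.20, adjusted p = 0.748 in edgeR's quasi-likelihood test, Benjamini-Hochberg).

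Mpc1 had 20.03, 29.1 and 47.4 CPM as the lowest, median and highest of the GV oocytes of batch A and 23.9, 38.5 and 54.0 CPM among the MII oocytes. Above the GV median were 4 of 6 MII oocytes, and 2 of them were above every GV oocyte. In batch B it had 5.92, 18.5 and 43.5 CPM in GV oocytes and 2.82, 12.6 and 22.9 CPM in MI oocytes. Below the GV median were 13 of 15 MI oocytes, and GV oocyte 7 stood alone at the top.

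For Mpc1 the log2 fold change was 0.26 from GV to MII (SE 0.24, 95% interval -0.25 to 0.78, adjusted p = 0.473 in edgeR's quasi-likelihood test with Benjamini-Hochberg adjustment). The value from GV to MI was -0.51 (SE 0.26, 95% interval -1.03 to 0.020, adjusted p = 0.477 in the same test). The MII change minus the MI change was 0.85 (SE 0.41, 95% interval 0.0096 to 1.68), with an unadjusted p of 0.0475, and it did not pass edgeR's quasi-likelihood test with Benjamini-Hochberg adjustment (adjusted p = 0.275). Over its leave-one-out fits the value from GV to MII ran from 0.15 to 0.41. From GV to MI it was -0.29 without GV oocyte 7.

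Pdha1 and Pdhb encode the alpha and beta subunits of E1, the decarboxylating enzyme of the pyruvate dehydrogenase complex. Pdha1 ranged from 33.1 to 59.1 CPM (median 50.6) in GV and from 35.4 to 54.3 CPM (median 41.0) in MII oocytes of batch A. In batch B it ranged from 29.2 to 63.1 CPM (median 49.2) in GV and from 25.6 to 123.5 CPM (median 44.7) in MI oocytes. All 6 MII oocytes lay inside the GV range, and the highest MI value was again that of oocyte 15. Per length, MI oocyte 7 was the highest for both Slc16a1 and Pdha1.

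Pdhb ranged from 44.9 to 110.5 CPM (median 51.6) in GV and from 45.9 to 103 CPM (median 81.8) in MII oocytes of batch A. Above the GV median were 5 of 6 MII oocytes, but GV oocyte 2 was above all of them. In batch B it ranged from 26.2 to 58.9 CPM (median 44.6) in GV and from 19.8 to 59.9 CPM (median 38.7) in MI oocytes, with 13 of 15 MI oocytes below the GV median.

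From GV to MII the log2 fold change was -0.20 for Pdha1 (SE 0.16, adjusted p = 0.416) and 0.31 for Pdhb (SE 0.24, adjusted p = 0.397) in edgeR's quasi-likelihood test with Benjamini-Hochberg adjustment. Without GV oocyte 2, Pdhb was at 0.55 from GV to MII (adjusted p = 0.0709 in the same test, the range over its 20 alternatives being 0.0709 to 0.593). On HTSeq counts the sign of Pdha1 turned from GV to MII, to 0.031. The values from GV to MI were 0.059 for Pdha1 (SE 0.18, adjusted p = 0.954) and -0.16 for Pdhb (SE 0.16, adjusted p = 0.787) in the same test. The MII change minus the MI change was 0.54 for Pdhb (SE 0.29, adjusted p = 0.339, edgeR's quasi-likelihood test with Benjamini-Hochberg adjustment).

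Dlat encodes E2, the acetyltransferase core of the complex. It had 31.9, 42.2 and 47.3 CPM as the lowest, median and highest of the GV oocytes of batch A and 27.7, 34.3 and 41.6 CPM among the MII oocytes. All 6 MII oocytes were below the GV median, and 2 were below every GV oocyte. The log2 fold change was -0.30 (SE 0.15, 95% interval -0.62 to 0.020) and did not pass edgeR's quasi-likelihood test with Benjamini-Hochberg adjustment (adjusted p = 0.173). In batch B, Dlat ranged from 17.4 to 36.5 CPM in GV and from 13.7 to 28.8 CPM in MI oocytes, with a log2 fold change of -0.068 (SE 0.15).

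Dld encodes E3, the lipoamide dehydrogenase that the complex shares with the other 2-oxoacid dehydrogenases. It ranged from 104.7 to 155 CPM (median 119) in GV and from 90.3 to 138 CPM (median 103) in MII oocytes of batch A, where 3 of 6 MII oocytes were below every GV oocyte. In batch B it ranged from 76.8 to 137 CPM in GV and from 81.1 to 141.5 CPM in MI oocytes. The log2 fold changes were -0.21 from GV to MII (SE 0.15, adjusted p = 0.340) and 0.070 from GV to MI (SE 0.11, adjusted p = 0.887) in edgeR's quasi-likelihood test with Benjamini-Hochberg adjustment.

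Oocytes of the same group differed from each other by an amount that depended on the gene. Among the 8 genes other than Ldha, for which it was not taken, the standard deviation of log2 CPM was lowest for Slc16a1 in MII (0.20). It was highest for Mpc1 in GV of batch B (0.70). Among the MI oocytes it was 0.22 for Dld, where the median of 779 genes of like abundance was 0.34, and 0.27 for Dlat, where the median of 1757 such genes was 0.48. For Mpc1 in GV of batch B, 93.2% of 1884 genes of like abundance had a smaller standard deviation.

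Spike-in RNA gives batch A a scale outside the oocyte's own RNA. The counts of genes per spike-in count were 118 ± 33.3 (SD, n = 6) in GV and 84.2 ± 11.6 (SD, n = 6) in MII oocytes, with ranges of 67.2 to 168 and 70.5 to 101. With spike-in counts as size factors, the median log2 fold change of all genes from GV to MII was -0.72. On this scale 6 of the 8 tested genes passed edgeR's test, each lower at MII, where 42.2% of all genes tested passed as lower. Whether added amount, capture or RNA content moved the spike-in share was not tested.

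Per 1000 spike-in counts, Mpc2 had 2.47, 3.97 and 5.74 counts as the lowest, median and highest of the GV oocytes, and 1.03, 1.68 and 2.23 among the MII oocytes. The groups did not overlap. The share of all genes without overlap on this scale is not given, so this is not shown to be particular to Mpc2. Mpc2 fell by 1.34 on the log2 scale (SE 0.27, adjusted p = 0.000534 in edgeR's quasi-likelihood test with Benjamini-Hochberg adjustment), which is -0.63 relative to the median of all genes.

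Ldhb had 232, 381 and 485 counts per 1000 spike-in counts as the lowest, median and highest of the GV oocytes and 176, 183 and 316 among the MII oocytes, with 5 of 6 MII oocytes below every GV oocyte. It fell by 0.83 on the log2 scale (SE 0.22, adjusted p = 0.00434 in edgeR's quasi-likelihood test with Benjamini-Hochberg adjustment), which is -0.12 relative to the median of all genes. Dlat, Dld, Pdha1 and Slc16a1 fell by 1.04, by 0.93, by 0.92 and by 0.82 on this scale, which is -0.32, -0.22, -0.20 and -0.10 relative to the median.

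The sign turned for 2 genes with the spike-in scale. Pdhb was at -0.40 (SE 0.26) and Mpc1 at -0.49 (SE 0.28), where TMM scaling gave positive values, and neither passed on either scale. Relative to the median of all genes they were at 0.31 and 0.23.

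**Figure D2:**
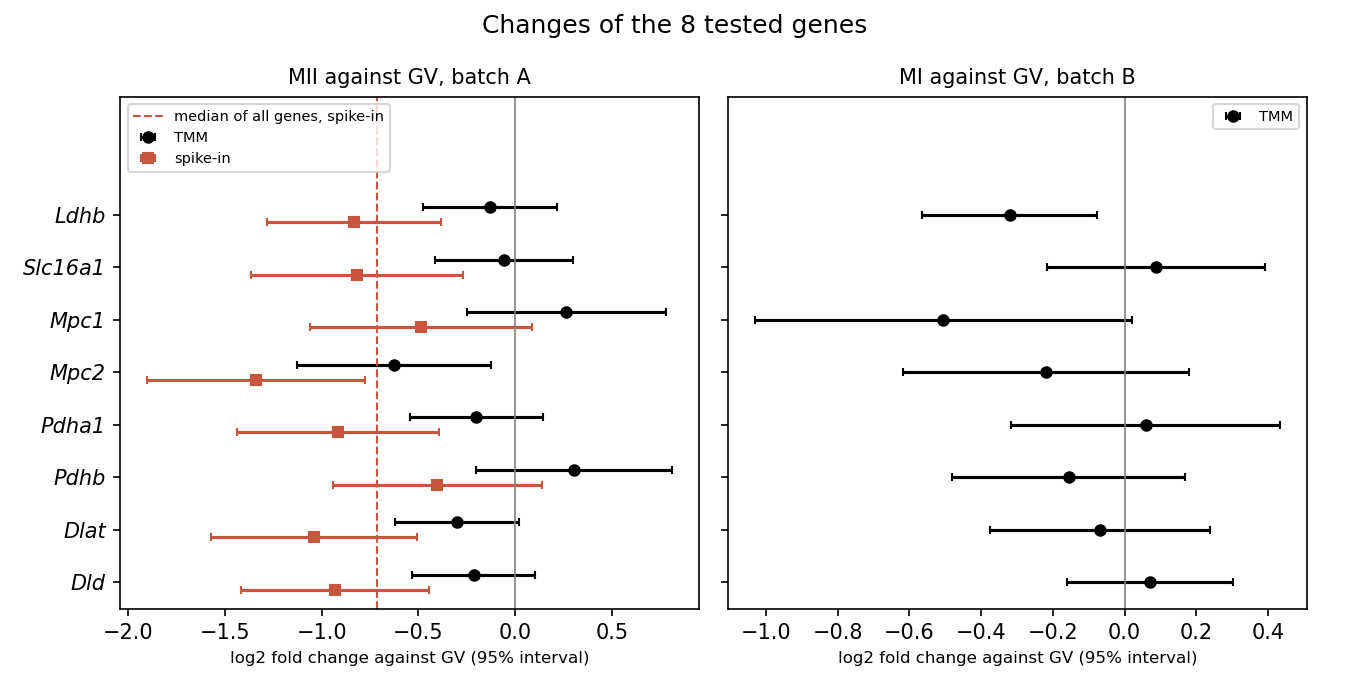
Points are log2 fold changes of 8 genes against GV and bars are 95% intervals, for MII in batch A (left, TMM scaling in black circles, spike-in scaling in red squares) and for MI in batch B (right, TMM scaling). The dashed line at -0.72 is the median of all genes with spike-in scaling, under which Pdhb and Mpc1 turn from positive to negative.

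Ratios between partner genes within an oocyte need no scaling between oocytes. They were taken as log2 ratios of levels per length for Mpc1 to Mpc2, Pdha1 to Pdhb and Dlat to Dld, in both batches. The mean difference was tested by permuting the stages, with all 924 assignments for 6 against 6 oocytes (exact) and 100000 resamples for 10 against 15, two-sided, and the p was adjusted by Benjamini-Hochberg over the 6 tests. Passing the adjusted threshold was 1 of 6.

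The log2 ratio of Mpc1 to Mpc2 had -0.45, 0.016 and 0.71 as the lowest, median and highest of the GV oocytes of batch A and 0.53, 1.07 and 1.36 among the MII oocytes. All 6 MII oocytes were above the GV median. MII oocyte 4, the lowest, was below GV oocytes 2 and 5. The mean ratio rose from 1.08-fold to 2.03-fold, a difference of 0.92 on the log2 scale (exact permutation p = 0.00649, adjusted p = 0.0390 by Benjamini-Hochberg).

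This call was lost under several alternatives. On HTSeq counts divided by the length of the longest protein-coding transcript, which alters both the counting and the length rule, the difference of the Mpc1 to Mpc2 ratio was 0.88 (adjusted p = 0.0909, Benjamini-Hochberg over exact permutation tests). There the mean ratio itself was 0.293-fold in GV and 0.537-fold in MII oocytes, so which of these genes has the higher level depends on these choices. On RSEM counts the difference no longer passed with GV oocyte 1, 3, 4 or 6 or MII oocyte 1, 2, 3, 5 or 6 left out, where the adjusted p was 0.0519 or 0.0779. The difference ran from 0.80 to 1.04 over the 13 alternatives, and its adjusted p from 0.0390 to 0.0909. In batch B the ratio ran from -1.48 to 1.20 in GV and from -0.60 to 0.78 in MI oocytes, with a mean difference of -0.19 (permutation p = 0.448). Whether the MII and MI differences of this ratio differ was not tested.

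The log2 ratio of Pdha1 to Pdhb had a mean of -1.15 ± 0.64 (SD, n = 6) in GV and -1.61 ± 0.57 (SD, n = 6) in MII oocytes, a difference of -0.46 (exact permutation p = 0.214). In batch B the means were -0.24 ± 0.64 (SD, n = 10) and 0.074 ± 0.63 (SD, n = 15), a difference of 0.32 (permutation p = 0.234). Dlat to Dld differed by -0.18 from GV to MII (exact permutation p = 0.240) and by -0.056 from GV to MI (permutation p = 0.812). These 4 differences lay within the spread between oocytes.

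**Figure D3:**
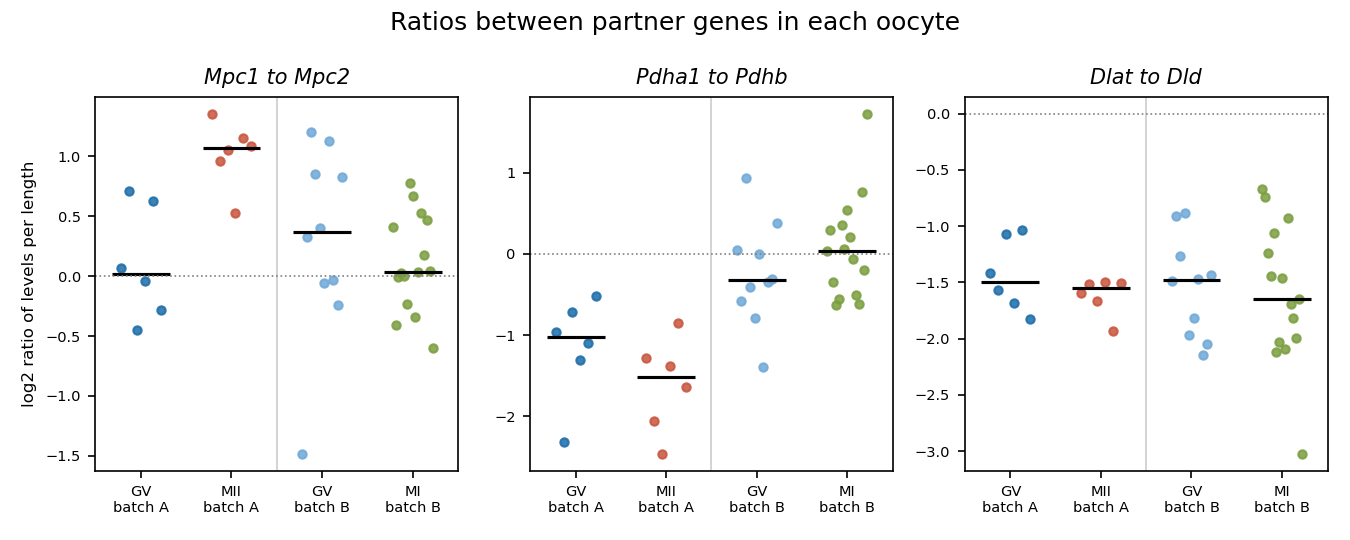
Each dot is the log2 ratio of the levels per length of 2 partner genes in 1 oocyte, for GV and MII of batch A and GV and MI of batch B; bars are medians and the dotted line marks equal levels. For Mpc1 to Mpc2 the MII oocytes lie between 0.53 and 1.36 and all 6 are above the GV median of 0.016.

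GV oocytes were in both batches, and Ldhb differed between them. Its level per length was 3.36-fold higher in GV of batch A, and the ranges did not meet (lowest 3559 in batch A, highest 1977 in batch B). Of the 9 genes, 1 had ranges apart in this way, where 18.1% of 11803 genes did. Most of those 2140 genes, 2063, were higher in batch A, as Ldhb was, and the median ratio of batch A to batch B over the 11803 genes was 1.52. The mean level of the other 7 detected genes was from 0.720-fold (Slc16a1) to 2.17-fold (Mpc2) of that in batch B. Ldha, near the limit of detection, was at 0.152-fold, with overlapping ranges and a highest value of 14.9 in batch B. The difference between batches was not tested, and what differs between them is not stated.

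Transcripts were examined with the deposited counts per transcript. Of the 54 transcripts of these genes, 12 reached a mean of 5 CPM in a group, and 2 had no count in any oocyte. Most counts of each detected gene fell on 1 transcript. Slc16a1 has 1 annotated transcript. Pdhb-201 held on average 99.2% to 99.7% of its gene's counts in the 4 groups, Dld-201 96.9% to 99.4%, Mpc1-208 96.5% to 98.8% and Ldhb-201 92.4% to 96.8%.

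For Dlat, Mpc2 and Pdha1 the share of the main transcript was lower in batch B than in batch A, as it was by less for Ldhb (96.8% and 96.8% against 94.1% and 92.4%) and Dld (99.4% and 99.0% against 97.7% and 96.9%). This difference between batches was not tested. Dlat-201 held on average 84.5% (GV) and 86.4% (MII) in batch A and 74.4% (GV) and 72.3% (MI) in batch B. Mpc2-201 held 92.9% and 93.1% in batch A and 82.0% and 76.2% in batch B. Pdha1-201 held 98.4% and 96.9% in batch A and 89.1% and 85.5% in batch B. Pdha1-202, annotated as a retained intron, had 5.38 ± 3.50 CPM (SD, n = 10) in GV and 6.72 ± 3.96 (SD, n = 15) in MI oocytes of batch B and 0.546 ± 0.977 (SD, n = 6) in GV and 1.16 ± 1.65 (SD, n = 6) in MII oocytes of batch A.

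From GV to MII, 0 of the 14 tested transcripts passed edgeR's test, where 9.3% of all 22461 did, and 1 had an unadjusted p under 0.05, as did 24.2% of all. It was Mpc2-201, at a log2 fold change of -0.65 (SE 0.27, adjusted p = 0.150, edgeR's quasi-likelihood test with Benjamini-Hochberg adjustment). Of the transcripts tested from GV to MI, 0 of 18 passed, where 0% of all 22717 did, and 1 had an unadjusted p under 0.05, as did 7.11% of all. It was Ldhb-201, at -0.35 (SE 0.13, adjusted p = 0.464 in the same test). DESeq2 gave 0 in both, beside 3.03% and 0.227% of all transcripts.

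The shares of a gene's transcripts were tested with edgeR's diffSpliceDGE, and with limma's diffSplice as an alternative. From GV to MII, 3 of the genes had transcripts enough to be tested (Ldhb, Dlat and Mpc2) and 0 passed, where 2.39% of 5478 genes did. Between GV and MI, 5 were tested (those 3, Dld and Pdha1) and 0 passed, where 0.0723% of 5536 genes did. At an unadjusted p under 0.05 there were 0 in both. By limma 0 passed as well, where 418 of 5478 genes did from GV to MII and 14 of 5536 from GV to MI.

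HTSeq and RSEM counted 6 of the genes nearly alike. The median HTSeq to RSEM ratio over 8243 genes was 1.07 to 1.13 in MI oocytes 4, 8 and 9 and 1.98 to 2.20 in the other 34 oocytes. In each oocyte the HTSeq count of a gene was divided by its RSEM count and by the median of that ratio over genes. The median over 37 oocytes was 1.00 for Ldhb, 1.01 for Dld, 1.01 for Mpc2, 1.04 for Slc16a1, 1.06 for Dlat and 1.09 for Pdhb. Ldha was at 0.598 over the 32 oocytes in which RSEM gave it a count. Mpc1 was at 0.290 (range 0.118 to 0.436), so HTSeq gave it fewer reads in each oocyte. Pdha1 was at 0.604 (GV) and 0.701 (MII) in batch A and at 0.886 (GV) and 0.906 (MI) in batch B.

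Overlapping and copied genes limit how surely these reads belong to a gene. On GRCm38, Mpc1 (chromosome 17, 8282904 to 8297661) shares 480 exonic bases with 4930506C21Rik on the other strand, which had a mean of 1.37 RSEM counts. Pdha1 (chromosome X, 160122209 to 160138413) shares 603 exonic bases with Map3k15 on the other strand, which had 104 RSEM counts on average beside 586 of Pdha1. The shared bases are 480 of 2082 exonic bases of Mpc1 and 603 of 3734 of Pdha1. Neither library nor counting is stated to use strand, so reads within the shared bases cannot be assigned by strand. The part of these reads in the lower relative HTSeq counts was not tested.

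Of the named copies, Pdha2, the intronless testis gene for E1 alpha, had means of 2.87 CPM (GV) and 3.70 (MII) in batch A and of 1.69 (GV) and 1.03 (MI) in batch B. Mpc1-ps was at or under a mean of 0.374 CPM in the 4 groups, and Ldha-ps2 at or under 0.0151.

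Pathway genes outside the 9 were taken from written lists. From GV to MII, the TCA cycle list with pyruvate carboxylase had 17 of 18 genes tested, and 1 was higher, 6 were lower and 10 did not pass edgeR's test, where 20.6% of all genes passed. With batch as a covariate 1 was lower, beside 4.05% of all genes, and with spike-in factors 12 were, beside 42.2%. None was higher with spike-in factors or without the filter. Its median log2 fold change was -0.26 against 0.013 over all genes. Sdhb, the iron-sulfur subunit of succinate dehydrogenase, had 21.0, 28.6 and 44.2 CPM as the lowest, median and highest of the GV oocytes and 9.97, 12.7 and 14.6 among the MII oocytes, with no overlap.

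Sdhb fell by 1.26 on the log2 scale (SE 0.20, adjusted p = 0.000488 in edgeR's quasi-likelihood test with Benjamini-Hochberg adjustment). The mitochondrial malate dehydrogenase gene Mdh2, the gene of the list with the next smallest adjusted p, ranged from 85.7 to 166 CPM in GV and from 39.3 to 65.8 CPM in MII oocytes. It fell by 1.11 (SE 0.19, adjusted p = 0.000745 in the same test). Idh3g, a regulatory subunit of isocitrate dehydrogenase, fell by 1.36 (SE 0.31, adjusted p = 0.00573 in the same test), and 3 of 6 MII oocytes were below every GV oocyte. With batch as a covariate in a fit of the 37 oocytes, Mdh2 (-1.05) and Idh3g (-1.30) no longer passed (adjusted p = 0.0635 and 0.0872, the highest over their 20 alternatives).

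The catalytic subunit of the same enzyme as Sdhb went the other way on the TMM scale. Sdha had 124, 173 and 236 CPM as the lowest, median and highest of the GV oocytes and 233, 255.5 and 265 among the MII oocytes, and 5 of 6 MII oocytes were above every GV oocyte. It rose by 0.54 on the log2 scale (SE 0.14, adjusted p = 0.0129 in edgeR's quasi-likelihood test with Benjamini-Hochberg adjustment). Without the filter on low counts its log2 fold change was 0.51 and it no longer passed (adjusted p = 0.0506 in the same test). Over its 20 alternatives the adjusted p ran from 0.00244 to 0.524. With spike-in scaling the log2 fold change of Sdha was -0.17.

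Of the glycolysis list, 14 of 24 genes were tested, and 0 were higher, 2 were lower and 12 did not pass from GV to MII, where 20.6% of all genes passed, with a median of -0.14. With spike-in factors 8 were lower, beside 42.2% of all genes, and with batch as a covariate 0 were, beside 4.05%. Eno1, an enolase gene, ranged from 26.5 to 42.7 CPM in GV and from 11.6 to 28.0 CPM in MII oocytes and fell by 1.03 on the log2 scale (SE 0.20, adjusted p = 0.00261 in edgeR's quasi-likelihood test with Benjamini-Hochberg adjustment). Gpi1, glucose-6-phosphate isomerase, ranged from 47.2 to 65.2 CPM in GV and from 28.8 to 43.2 CPM in MII oocytes, without overlap, and fell by 0.61 (SE 0.14, adjusted p = 0.00689 in the same test). In the fit with batch as a covariate Eno1 was at -0.97 and Gpi1 at -0.55, and neither passed (adjusted p = 0.0688 and 0.106, the highest over their 20 alternatives). Gpi1 also did not pass on HTSeq counts without MII oocyte 1 (adjusted p = 0.0605).

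Of the other lactate dehydrogenase genes, 2 of 3 were tested. Ldhc, the germ-cell subunit known from testis, had 0.928, 5.90 and 33.1 CPM as the lowest, median and highest of the GV oocytes of batch A and 0.640, 1.25 and 2.55 among the MII oocytes. The ranges overlapped, and 1 MII oocyte was below every GV oocyte. Ldhc fell by 2.94 on the log2 scale (SE 0.67, adjusted p = 0.00633 in edgeR's quasi-likelihood test with Benjamini-Hochberg adjustment), and its log2 fold change ran from -3.18 to -2.25 with 1 oocyte left out.

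The malate-aspartate shuttle list had 7 of 7 genes tested, of which 0 were higher, 1 (Mdh2) was lower and 6 did not pass, where 20.6% of all genes passed, with a median of -0.017. With spike-in factors 4 were lower (42.2% of all genes), and with batch as a covariate 0 were (4.05% of all genes). Of 8 tested regulators and partners of pyruvate dehydrogenase, 6 tested subunits of the other complexes that use Dld and 4 tested other carriers of lactate and pyruvate, 0 passed edgeR's test from GV to MII, with medians of 0.083, 0.085 and -0.16. At an unadjusted p under 0.05 there were 1, 0 and 0 of them, beside 34.3% of all genes.

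Between GV and MI, 0 genes of these 7 pathway lists passed edgeR's test, where 0.145% of all genes did. At an unadjusted p under 0.05 there were 2 of 14 glycolysis genes, 2 of 17 TCA cycle genes, 1 of 2 other lactate dehydrogenase genes and 0 of the other 4 lists, beside 11.0% of all genes. The medians were -0.093 for glycolysis, 0.022 for the TCA cycle, -0.14 for the malate-aspartate shuttle, -0.041 for the regulators, -0.075 for the other subunits, 0.034 for the other carriers and -0.36 for the other lactate dehydrogenase genes, against 0.018 over all genes. The difference between the MII change and the MI change passed for 1 of 17 TCA cycle genes, beside 5.46% of all genes. It was Sdhb, at -1.42 on the log2 scale (SE 0.38, adjusted p = 0.0178 in edgeR's quasi-likelihood test with Benjamini-Hochberg adjustment). On HTSeq counts without MI oocytes 4, 8 and 9 it did not pass (adjusted p = 0.0685 in the same test, the range over its 5 alternatives being 0.00721 to 0.0685).

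Levels per length placed the 9 genes among related genes, which are named here after their values were seen. Pkm, whose pyruvate kinase makes pyruvate, had means of 332 (GV) and 299 (MII) in batch A and 529.9 (GV) and 511 (MI) in batch B. Hk1, a hexokinase gene at the entry of glycolysis, was at 0.810 (GV) and 0.651 (MII) in batch A and 1.10 (GV) and 0.813 (MI) in batch B. Hk2, another hexokinase gene, was at 1.93 (GV) and 1.90 (MII) in batch A and 3.42 (GV) and 2.44 (MI) in batch B. Other glycolysis genes were higher than these hexokinase genes. In batch A, Aldoa was at 128 (GV) and 101 (MII), Gapdh at 83.7 and 51.3 and Tpi1 at 68.3 and 62.8. In batch B, Aldoa was at 123 (GV) and 125 (MI), Gapdh at 18.3 and 13.4 and Tpi1 at 42.2 and 41.1. Of the monocarboxylate carrier genes, Slc16a7 was at 1.15 (GV) and 0.607 (MII) and Slc16a3 at 0.0891 (GV) and 0.289 (MII) in batch A, where Slc16a1 was at 24.5 (GV) and 19.8 (MII). Bsg, encoding basigin, the chaperone of MCT1, was at 50.8 (GV) and 30.9 (MII) in batch A, above Slc16a1. In batch B it was below, at 19.6 (GV) and 16.7 (MI), where Slc16a1 was at 34.1 and 35.2.

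Marker genes moved in both comparisons. From GV to MII, 5 of 12 oocyte markers were lower and 0 higher by edgeR's test, where 20.6% of all genes passed, and 9 were lower with spike-in factors, as were 42.2% of all genes. The 5 included the zona pellucida genes Zp3, Zp1 and Zp2, which fell by 2.21, by 1.39 and by 2.14 on the log2 scale. For the granulosa markers 0 of 3 tested passed, and 0 had an unadjusted p under 0.05. The other 17 of 20 had too few counts for the test, and by their mean CPM 9 of them were lower and 8 higher at MII. Of the lower ones, Ccnd2 had a mean of 3.46 CPM in GV and 0.0690 in MII oocytes. Fshr had 1.20 and 0.0173, and Inha 0.887 and 0.0622. Of the 8 higher, Slc38a3 had 0.0151 and 0.205, Inhbb 0.1155 and 0.233, and Inhba 0.726 and 0.806. These differences were not tested.

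Between GV and MI, 2 of 6 tested granulosa markers passed edgeR's test, where 0.145% of all genes did. Gja1 fell by 3.42 and Ccnd2 by 3.69 on the log2 scale, whereas the median of the 6 was -0.085 and the mean of Nr5a2 was 11.7 CPM in GV and 20.1 in MI oocytes. With a replicate block Gja1 was at -2.99 and Ccnd2 at -3.75 and neither passed, where 0 of all 11930 genes did. Without MI oocyte 7, Ccnd2 was at -3.60 and no marker passed, where 0 of all 12213 genes did. Without MI oocyte 8, 1 marker was lower past the test, where 8 of 12257 genes passed. Without MI oocytes 4, 8 and 9 it was also 1, where 39 of 11929 genes passed. Over the 33 alternatives the number of lower markers ran from 0 to 3. On HTSeq counts Gja1 was at -3.27 and Ccnd2 at -2.22 and neither passed, and there 0 of all 12441 genes passed. The part of such cells in the levels of the 9 genes was not tested.

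The gene most like each of the 9 in pattern was sought by Pearson's r of log2(CPM + 1) after subtracting each batch's mean, over 37 oocytes and among 5896 genes. These r describe oocytes that share batch, library preparation and depth, and each is the highest of many. Ldhb was most like Psma5 (r = 0.818), Ak6 (r = 0.788) and Cox7a2 (r = 0.760), with values within the batches of 0.943 and 0.777 for Psma5. Mpc1 was most like Ndufab1 (r = 0.817), with 0.849 in batch A and 0.810 in batch B. Mpc2 was most like Aurkaip1 (r = 0.768).

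Dlat was most like Caml (r = 0.769), Dld like Shcbp1 (r = 0.747), Pdhb like Cul1 (r = 0.725), Slc16a1 like Sprtn (r = 0.721) and Pdha1 like Letm1 (r = 0.713, and 0.315 within batch A). Ldha was most like Grm2 (r = 0.534), which was -0.13 within batch A. Among the 28 pairs of the genes other than Ldha, r had a median of 0.062, with 17 pairs positive. The highest were Dld with Pdhb (r = 0.60) and Mpc1 with Mpc2 (r = 0.555), and the lowest of all pairs was -0.51.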

How the data were processed

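Per the submitters' notes, the authors trimmed reads with Trim Galore 0.6.4, estimated the deposited expected counts per gene and transcript with RSEM 1.3.1 on mm10, and made the deposited HTSeq counts with STAR 2.7.6a and HTSeq 0.12.4. Neither was normalized. Gene symbols and lengths came from GENCODE M21.

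Expected counts were rounded and the 92 spike-ins set aside. R 4.3.3 with edgeR 4.0.16 (filterByExpr, TMM, quasi-likelihood test), DESeq2 1.42.0 and limma 3.58.1, and Python 3.11.15 with scipy 1.17.1, were used after tests on simulated data. Intervals of log2 fold changes are 95%, from the standard error between oocytes and the t distribution with the degrees of freedom of edgeR's test. The floor of 3 counts covers counting error alone, and the amplified reads carry no molecular identifiers.

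The 9 genes and all lists were chosen with earlier results of these data known. Named were the 9 genes, their transcripts with a mean of at least 5 CPM in a group or past the test, per list and comparison up to 3 higher and 3 lower genes with the smallest adjusted p among those past the test, and the most alike genes with a mean of at least 10 CPM in both batches. Alternatives were no filter, RLE and spike-in factors, DESeq2, HTSeq counts, a replicate block, batch as a covariate, and leaving oocytes out. No protein sequences were at hand, so none are shown.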

Additional observations from a re-analysis of the deposited data

Results flagged for a closer look

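An oocyte was flagged by its gap to the nearest other oocyte, at a nominal rate of about 1 in 20 groups. Whether this rate holds for CPM values was not tested, and the share flagged over all genes is not given. Of 36 groups of values tested, 4 held an oocyte far from the others. They were Ldha in MII oocyte 1 of batch A (1.35 CPM, the nearest other oocyte at 0.260, and 8 against 5 HTSeq counts), Ldha in GV oocyte 8 of batch B (5.52 CPM, the nearest at 1.47, with 3.85, 2.24 and 2.20 CPM on HTSeq counts in GV oocytes 8, 7 and 9), Pdhb in GV oocyte 2 of batch A (110.5 CPM, the nearest at 69.0) and Mpc1 in GV oocyte 7 of batch B (43.5 CPM, the nearest at 23.5). In MII oocyte 1, 29518 genes had a count, where the rest of its group had from 19273 to 22244, and it had the highest summed blood and immune markers (17.7 CPM). Whether this bears on its Ldha was not tested.

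The MII change differed from the MI change, by the test of the difference in the model of all 37 oocytes (edgeR's quasi-likelihood test with Benjamini-Hochberg adjustment), for 5 named genes outside the 9. The differences on the log2 scale were -1.42 for Sdhb, -1.74 for Zp2, -1.42 for Zp1, -1.86 for Zp3 and 5.40 for Hbb-bs. That of Hbb-bs was 1.94 without MII oocyte 1 and did not pass there, and that of Sdhb did not pass on HTSeq counts without MI oocytes 4, 8 and 9 (-1.31). Stage, batch and manner of maturation cannot be told apart in these differences.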

How the results depend on the processing

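Of 469 alternative values for the 9 genes, 448 kept direction and side of the threshold, 8 passed only under the alternative and 13 turned sign. For their transcripts 484 of 512 stayed, for the ratios 107 of 120. Where values moved, the cause was not tested, except that leaving oocytes out lowers their number.

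The count of the 9 genes passing from GV to MII was 1 with no filter, where 7.97% of all genes passed. It was 6 with spike-in factors, where 43.3% did. With an oocyte left out it was 0 to 1, the 1 being without GV oocyte 2, where 2488 of 13093 genes passed. That of transcripts was 8 of 14 with spike-in factors, where 22.9% of all transcripts passed. The count of ratios was 0 on HTSeq counts divided by the longest protein-coding transcript length (2 choices altered together) and 0 to 1 with an oocyte left out. From GV to MI the counts of genes and transcripts were 0 under every alternative run.

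Signs turned from GV to MII with spike-in factors for Pdhb (-0.40), Mpc1 (-0.49), Sdha (-0.17), Pdhb-201 (-0.40), Mpc1-208 (-0.46) and Ldhb-202 (-0.64). On HTSeq counts Pdha1 was at 0.031, and without MII oocyte 1 Pdha1 was at 0.032 and Ldhb at 0.0061. Without the filter, Pdha1-201 was at -0.029 from GV to MI.

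No pairing of oocytes by their numbers was detected, and whether a number marks a shared origin is not stated. Deviations of same-numbered oocytes correlated from -0.33 to 0.34 over 6 pairs in batch A (1 over 0.1, 1 best with its own number) and from -0.15 to 0.11 over 10 pairs in batch B (1 over 0.1, 0 best). With the number as a replicate block, 0 of the 9 genes and 0 of their transcripts passed in either comparison, where 12.3% of all genes and 2.79% of all transcripts passed from GV to MII and 0% of both from GV to MI. From GV to MI Pdha1 was at -0.10, Dlat at 0.019, Ldhb-202 at -1.21 and Pdha1-201 at -0.16.

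With each oocyte left out in turn, log2 fold changes from GV to MII ran from -0.11 to 0.096 for Slc16a1, from -0.12 to 0.081 for Slc16a1-201 and from -0.016 to 0.87 for Ldhb-202. From GV to MI they ran from -0.078 to 0.11 for Pdha1, from -0.11 to 0.020 for Dlat, from -0.0013 to 0.15 for Slc16a1, from -0.11 to 0.36 for Ldhb-202, from -0.15 to 0.068 for Pdha1-201 and from -0.0031 to 0.14 for Slc16a1-201, and the difference of the Dlat to Dld ratio from -0.12 to 0.046.

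The planned test of the Ldhb to Ldha ratio was not run, since the ratio is undefined at 0 and Ldha was at 0 in oocytes of 3 groups, and no test with a floor was run. MI oocyte 15 had the lowest depth, and on the CPM scale Pdha1 and Slc16a1 were highest in it, whereas per length both were highest in MI oocyte 7.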
